A study of Mus musculus with 20 samples.

Results

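The endothelium markers of the outer eyecup were described as 9 genes that vascular endothelial cells are known to express, *Pecam1*, *Cdh5*, *Plvap*, *Tek*, *Tie1*, *Emcn*, *Vwf*, *Eng* and *Esam*. They were taken by gene symbol from a list of marker names and are 9 of the 24411 genes in the table. All 9 were above 0 in every library and passed the filter on low values, as did 18807 genes in all. RNA-seq was performed on 20 libraries of outer eyecup (RPE-choroid) from mice labelled C57BL/6 (the study's methods give C57BL/6J as the background of the knockout), 5 in each of 4 groups. Wild-type (WT) mice were fed a vitamin A sufficient diet (VAS, 4 IU per g) or a vitamin A deficient diet (VAD, 0 IU per g) for 12 weeks, and mice carrying a knockout of *Stra6* (*Stra6-/-*), the retinol transporter of the RPE, were fed the same diets. By the study's methods, both eyecups of 1 mouse were pooled for each library. Mice were perfused with buffered saline before dissection, and the neural retina was peeled away after dispase treatment. The knockout is carried by the whole mouse and not by 1 cell type. Whether the 4 groups were dissected together is not given in the sources used here.

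The choroid is a dense vascular bed that lies behind the RPE and supplies it and the photoreceptors. Its capillaries, the choriocapillaris, have a fenestrated endothelium, in contrast to the closed endothelium of the inner retinal vessels. Endothelial cells hold to each other through adhesion molecules, read angiopoietins through the Tie receptors and members of the TGF-beta family through endoglin, and store clotting factor in their granules. In bulk samples, fewer endothelial cells and less RNA per endothelial cell cannot be told apart. Nor can transcripts of choroidal endothelium be told apart from those of scleral, muscle or remaining retinal vessels, since 8 of the 9 genes are general endothelial markers and *Plvap*, which encodes the diaphragm protein of fenestrae, is the one tied to fenestrated vessels. Whether cells other than endothelium gave some of the members' transcripts was not tested.

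Depth ran from 13331903 to 21878614 reads per library with a median of 17785927, and no pair of libraries within a group agreed within sampling noise. Values below are gene counts divided by 1 size factor per library (normalized values). Several libraries stood apart from their labels or their group. *Stra6* was at 2414 to 2742 in VAS WT and 564 to 694 in VAS *Stra6-/-*, but at 1973 to 2393 in the libraries labelled VAD *Stra6-/-*, above the 669 to 1529 of VAD WT (log2 fold change 1.23, SE 0.18, limma adjusted p = 3.92e-06). That goes against the label, so these are called the libraries labelled VAD *Stra6-/-* throughout. *Stra6* was also lower in VAD WT than in VAS WT (log2 fold change -1.49, SE 0.18, limma adjusted p = 6.74e-06). VAD WT replicates 1, 3 and 5 had it at 669 to 697, near the range of VAS *Stra6-/-*, and replicates 2 and 4 at 1340 and 1529. Within VAD WT, replicates 2 and 4 had *Xist* at 10912 and 11767, and *Ddx3y*, a Y-linked gene, at 75.2 and 80.5, whereas replicates 1, 3 and 5 had 174 to 234 and 1041 to 1133. VAS WT had *Xist* at 7.69 to 38.4 with *Ddx3y* at 981 to 1193, VAS *Stra6-/-* had *Xist* at 15320.2 to 18052 with *Ddx3y* at 0 to 1.02, and every library labelled VAD *Stra6-/-* held both, at 3569.8 to 4280 and 741 to 969.7. Sex-linked transcripts thus moved with genotype on the VAS diet and with diet under the knockout label, and cannot be told apart from either. *Xist* and *Ddx3y* both at the levels of the libraries labelled VAD *Stra6-/-* would be unusual for 1 mouse per library. Whether the 5 libraries of a group came from 5 separate mice was not tested, and SDs and p-values below treat them so. Results on the members that rest on VAD WT are given with all 5 libraries, without replicates 2 and 4, and without replicates 1, 3 and 5.

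By level per kb of transcript, *Plvap* was the highest member in every group (1651 ± 79.3 per kb in VAS WT, mean ± SD, n = 5) and *Tek* or, in the libraries labelled VAD *Stra6-/-*, *Vwf* the lowest. In VAS WT the order after *Plvap* was *Eng* (921 ± 45.7 per kb), *Emcn* (543 ± 37.3), *Esam* (410.1 ± 20.7), *Tie1* (294 ± 18.7), *Pecam1* (277 ± 19.01), *Vwf* (182 ± 15.7), *Cdh5* (158 ± 10.01) and *Tek* (107 ± 8.64). Neighbours in this order had separate ranges except *Tie1* with *Pecam1* and *Vwf* with *Cdh5*. In VAS *Stra6-/-* the ranges of *Emcn* and *Esam* overlapped, as did those of *Vwf* and *Tie1*. In the libraries labelled VAD *Stra6-/-*, *Emcn* stood second (1129 ± 64.8 per kb), above *Eng* (919 ± 50.3), and *Pecam1* (601 ± 13.2) above *Esam* (545 ± 20.6). Here *Tek*, *Cdh5* and *Vwf* overlapped with their neighbours at the foot of the order (215 ± 24.2, 185 ± 22.4 and 172 ± 4.63 per kb). In VAD WT all neighbouring ranges overlapped.

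**Figure D1:**
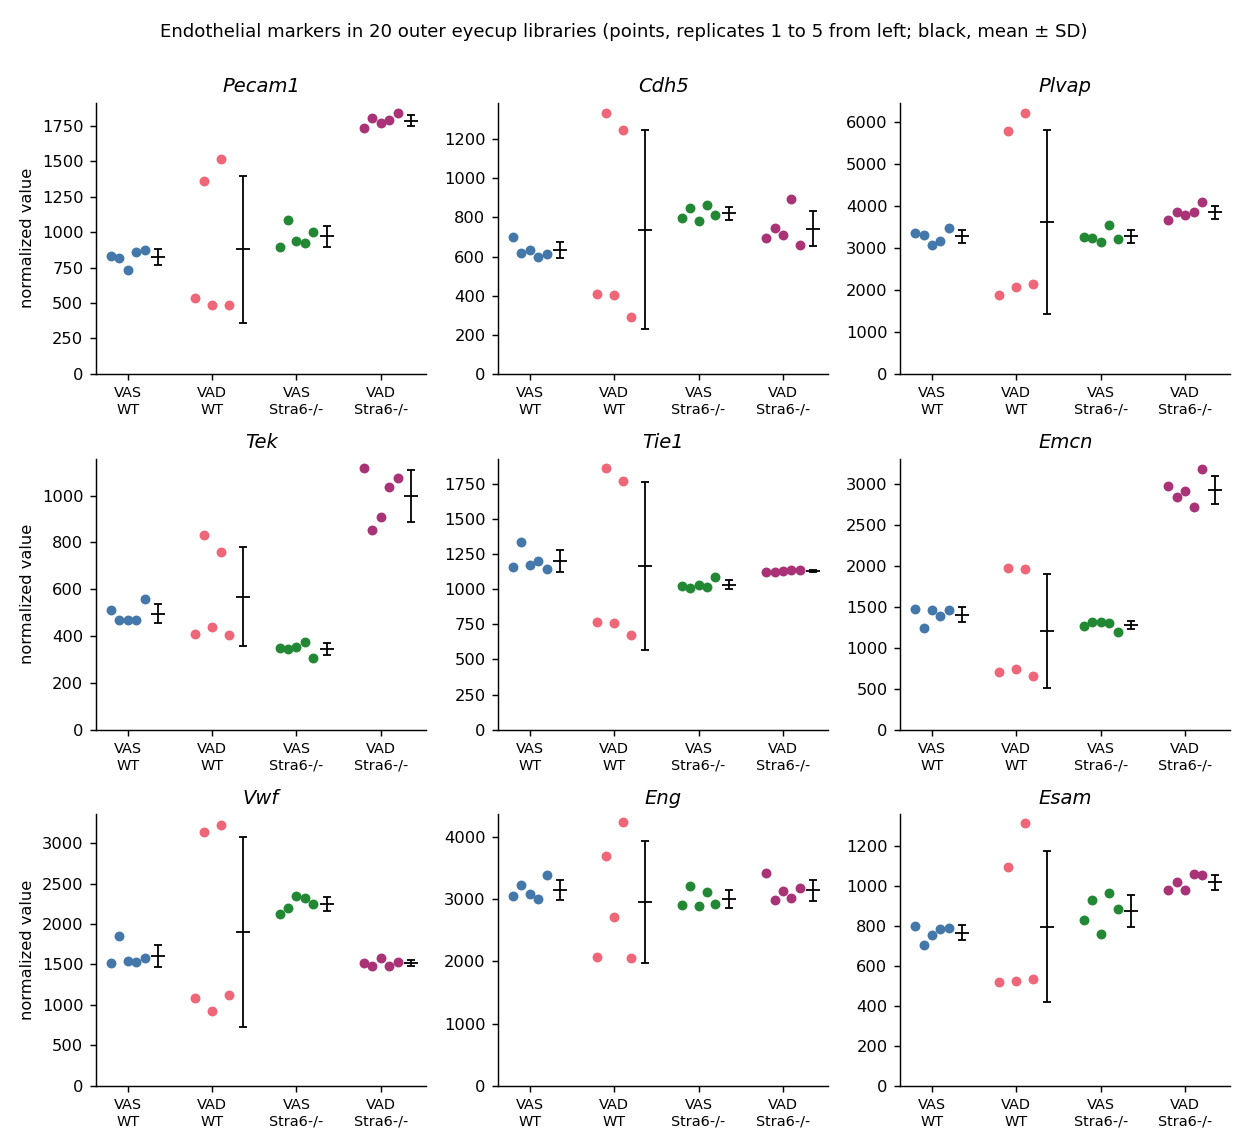
Normalized values of the 9 endothelium markers (vertical axes, from 0) in each of the 20 libraries, with replicates 1 to 5 from left to right in each group and the group mean ± SD in black. VAD WT replicates 2 and 4 lie above the other 3 libraries of that group for every gene, and *Pecam1*, *Emcn* and *Tek* in the libraries labelled VAD *Stra6-/-* exceed those of VAS *Stra6-/-*.

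The 5 VAD WT libraries did not form 1 group for any member. Replicates 1, 3 and 5 lay below the whole VAS WT range, and replicates 2 and 4 above it, for 9 of the 9 genes. The median ratio of the members to their VAS WT mean was 0.653, 0.635 and 0.650 in replicates 1, 3 and 5, and 1.654 and 1.714 in replicates 2 and 4. The summed value of the 9 members was 8361, 9064 and 8356 in the former and 21087 and 22277 in the latter, against 12929 to 13879 in VAS WT. *Cdh5* had the widest spread (coefficient of variation 69.1%) and *Eng* the narrowest (33.3%), while no member exceeded 12.1% in any other group.

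The same libraries differed in other tissues' markers. The erythrocyte list summed to 3175 to 3373 in replicates 1, 3 and 5 and to 44884 and 45389 in replicates 2 and 4, with VAS WT at 5877 to 6695. The 10 sclera and fibroblast markers summed to 52116 to 54242 in the former and 166253 and 169816 in the latter. The 10 surface epithelium markers ran the other way, at 985245 to 1015100 against 373699 and 371009, and the 10 RPE markers stood at 30341 to 32983 against 55699 and 54415, under the 109982 to 126249 of VAS WT in every VAD WT library. The defining markers of each of these lists were present, and the part of these shifts in the endothelial values was not tested.

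**Figure D2:**
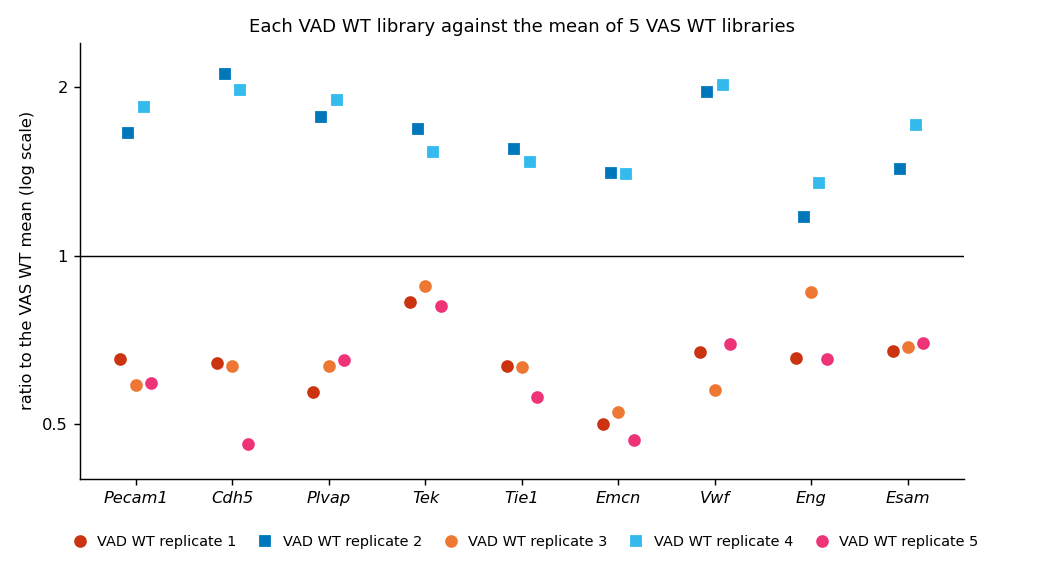
Ratio of each VAD WT library to the mean of the 5 VAS WT libraries (vertical axis, log scale) for the 9 members, with 1 marker per library. Replicates 2 and 4 (squares) are above 1 and replicates 1, 3 and 5 (circles) below 1 for every member.

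By its labels, the VAD WT against VAS WT comparison asks what dietary deficiency does to the outer eyecup of normal mice. The 2 groups also differed in *Stra6* and in sex-linked transcripts, which cannot be told apart from diet here. With all 5 libraries, 0 of the 9 members passed the test (limma, adjusted p under 0.05), where 8.78% of all genes tested did. The fold change closest to the threshold was that of *Emcn*, whose product endomucin is a sialomucin of capillary and venous endothelium. *Emcn* was at 1474, 1243, 1461, 1388 and 1458 in VAS WT and at 704, 1974, 738, 1963 and 658 in VAD WT (log2 fold change -0.41, SE 0.24, limma adjusted p = 0.338). Every one of the 9 calls turned on which libraries were kept. Without replicates 2 and 4 all 9 members were lower (20.3% of genes tested were called lower), from *Tek* at -0.25 (limma adjusted p = 0.0437) to *Emcn* at -1.003 (limma adjusted p = 9.02e-11) on the log2 scale. Without replicates 1, 3 and 5 all 9 were higher (17.1% of genes tested were called higher), from *Eng* at 0.33 (limma adjusted p = 7.54e-04) to *Cdh5* at 1.03 (limma adjusted p = 1.08e-07). No direction is therefore given for the level of any member in this comparison.

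The comparison of VAS *Stra6-/-* with VAS WT asks what loss of STRA6 does when vitamin A is supplied. These groups also differed in sex-linked transcripts in every library, which cannot be told apart from genotype here. *Tek*, which encodes TIE2, the receptor of angiopoietins, was lower. It was at 512, 467, 471, 470.2 and 559.7 in VAS WT and at 349, 347, 352, 374 and 305 in VAS *Stra6-/-*, so that the groups did not overlap (log2 fold change -0.52, SE 0.17, limma adjusted p = 0.0237). *Tek* was the 1 member of 9 that passed, where 26.6% of all genes tested did and 10.8% were lower. The call was lost without VAS WT replicate 5 or without VAS *Stra6-/-* replicate 5, when 0 members passed.

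The receptor *Tie1*, which lacks a well-defined ligand of its own and pairs with TIE2, ran from 1144 to 1334 in VAS WT and from 1009.6 to 1084 in VAS *Stra6-/-* (log2 fold change -0.22, SE 0.21, limma adjusted p = 0.492). *Vwf*, which encodes von Willebrand factor of the endothelial storage granules, was at 1519.7, 1848, 1541, 1531 and 1581 in VAS WT and at 2125, 2200.3, 2346, 2321 and 2252 in VAS *Stra6-/-* (log2 fold change 0.49, SE 0.26, limma adjusted p = 0.172). *Cdh5*, encoding VE-cadherin of endothelial adherens junctions, ran from 600.0 to 701 and from 783 to 866 in these groups (0.38, SE 0.29, limma adjusted p = 0.387). *Pecam1*, the CD31 adhesion molecule, ran from 730.5 to 875 and from 895 to 1089 (0.24, SE 0.24, limma adjusted p = 0.524). These 4 genes had no overlap between groups and did not pass in this fit, which shares 1 estimate of spread over the 4 groups, the divided VAD WT group included. In all 5 of the 9 members had groups that did not overlap, where 32.5% of genes tested did. With only the 2 groups of this comparison in the fit, 6 of the 9 passed (43.6% of genes tested), 4 higher (*Vwf* adjusted p = 5.22e-05, *Cdh5* 1.38e-04, *Pecam1* 0.0136 and *Esam* 0.0438) and 2 lower (*Tek* 1.77e-04 and *Tie1* 0.00254, all limma). *Plvap* had means of 3281 ± 158 and 3280.1 ± 155 (SD, n = 5), and its log2 difference of 0.00 had an SE of 0.25. *Eng*, the TGF-beta coreceptor endoglin, differed by -0.07 (SE 0.14) and *Emcn* by -0.14 (SE 0.24), both without passing.

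The libraries labelled VAD *Stra6-/-* against VAS *Stra6-/-* differ in diet by their labels, and also in *Stra6*, sex-linked transcripts and the markers of other tissues. Here the members diverged. *Tek*, *Emcn* and *Pecam1* were higher, and *Vwf* had the lowest fold change. *Tek* was at 1117, 854, 908, 1038 and 1076 in the libraries labelled VAD *Stra6-/-*, each above the highest VAS *Stra6-/-* value of 374, a 2.88-fold difference (log2 fold change 1.52, SE 0.17, limma adjusted p = 8.49e-08). *Emcn* was at 2966, 2839.6, 2914, 2719 and 3172 against 1264, 1313, 1318, 1296 and 1189.7, a 2.29-fold difference (1.19, SE 0.24, limma adjusted p = 1.91e-04). *Pecam1* was at 1736, 1804, 1769, 1792 and 1841 against 895, 1089, 936, 926 and 1003, a 1.85-fold difference (0.89, SE 0.24, limma adjusted p = 0.00367). For each of these 3 genes the 2 groups did not overlap.

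*Vwf* was at 1519, 1481, 1576, 1477 and 1535 in the libraries labelled VAD *Stra6-/-*, below the lowest VAS *Stra6-/-* value of 2125 (log2 fold change -0.57, SE 0.26, limma adjusted p = 0.068). *Plvap*, at 3675, 3849, 3777, 3854 and 4097 against 3139.8 to 3545, differed by 0.23 (SE 0.25, limma adjusted p = 0.455). *Esam*, an adhesion molecule of endothelial tight junctions, ran from 979 to 1058 against 759 to 964 (0.22, SE 0.19, limma adjusted p = 0.352). *Tie1* ran from 1122 to 1137 against 1009.6 to 1084 (0.13, SE 0.21, limma adjusted p = 0.63). Thus 7 members had groups that did not overlap, where 51.3% of genes tested did. *Eng* (0.06, SE 0.14) and *Cdh5* (-0.15, SE 0.29) overlapped. In all 3 of 9 members passed, all higher, where 53.2% of genes tested passed and 24.4% were higher. With only these 2 groups in the fit 7 passed (62.2% of genes tested), adding *Plvap* (adjusted p = 4.29e-04), *Tie1* (7.85e-04) and *Esam* (0.0105) as higher and *Vwf* (1.40e-07, all limma) as lower.

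**Figure D3:**
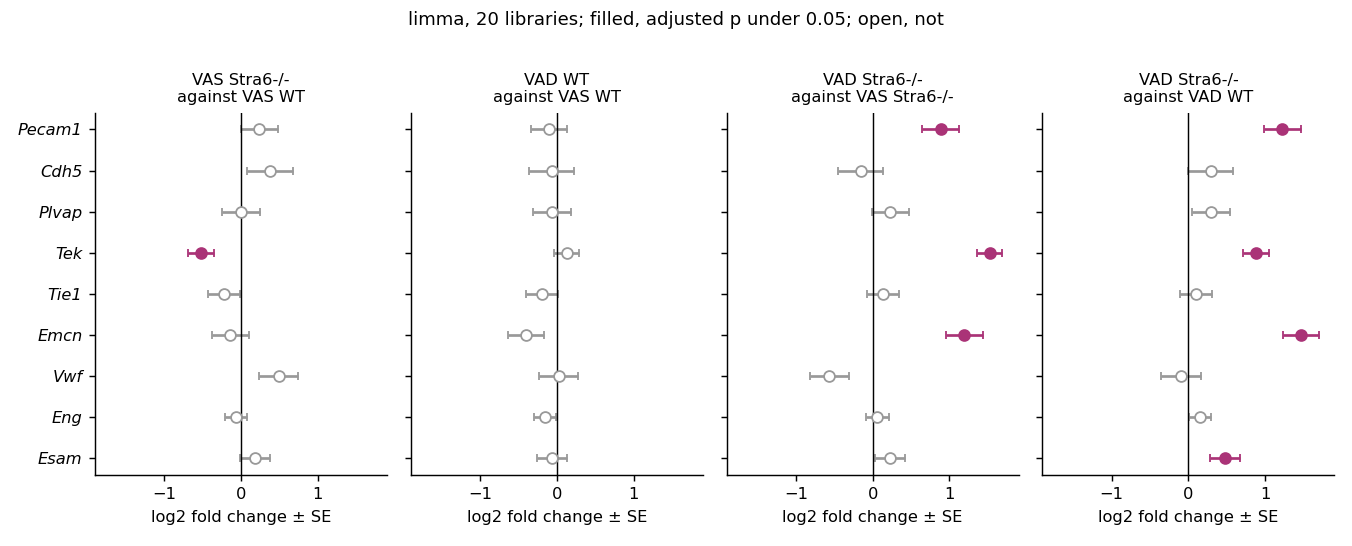
Log2 fold change ± SE (horizontal axis) of the 9 members in the 4 comparisons, from limma on log2(value + 1) over 20 libraries, with filled points where the adjusted p was under 0.05. *Tek*, *Emcn* and *Pecam1* are filled in both comparisons of the libraries labelled VAD *Stra6-/-*, and *Tek* is the filled point of the VAS genotype comparison.

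With VAD WT as the reference for the libraries labelled VAD *Stra6-/-*, 4 of 9 members passed, all higher, where 55.9% of genes tested passed and 26.2% were higher. *Emcn* differed by 1.46 (SE 0.24, limma adjusted p = 1.79e-05), *Pecam1* by 1.22 (SE 0.24, limma adjusted p = 1.79e-04), *Tek* by 0.88 (SE 0.17, limma adjusted p = 1.14e-04) and *Esam* by 0.48 (SE 0.19, limma adjusted p = 0.0424) on the log2 scale. *Emcn*, *Pecam1* and *Tek* lay above every VAD WT library, replicates 2 and 4 included (18.3% of genes tested did), whereas *Esam* overlapped with them (518, 1092, 525, 1311 and 534 in VAD WT) and did not pass with only these 2 groups fitted (limma adjusted p = 0.186), in edgeR (adjusted p = 0.192) or in DESeq2 (adjusted p = 0.161). Against VAD WT replicates 2 and 4 alone *Emcn* (0.57), *Tek* (0.32) and *Pecam1* (0.31) were still higher, and the other 6 members were lower, from *Esam* at -0.23 to *Vwf* at -1.07 (52.2% of genes tested were called). Against replicates 1, 3 and 5 alone all 9 were higher, from *Eng* at 0.48 to *Emcn* at 2.06 (30.7% of genes tested were called higher). The direction for *Cdh5*, *Plvap*, *Tie1*, *Vwf*, *Eng* and *Esam* thus turned on the VAD WT libraries kept.

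The difference between the diet contrasts of the 2 genotypes, as labelled, was tested as an interaction. It passed for *Emcn* (1.60, SE 0.33, limma adjusted p = 4.70e-04), *Tek* (1.40, SE 0.23, limma adjusted p = 4.55e-05) and *Pecam1* (0.99, SE 0.34, limma adjusted p = 0.0224), 3 of 9 members, all higher, where 44.2% of genes tested passed and 19.5% were higher. Without VAD WT replicates 1, 3 and 5 the interaction of *Emcn* was 0.70 (limma adjusted p = 1.37e-06) and that of *Tek* 0.84 (limma adjusted p = 3.62e-05), while that of *Pecam1* was 0.08 (limma adjusted p = 0.534) and no longer passed. The *Pecam1* interaction did not pass in edgeR (0.79, adjusted p = 0.0825) or DESeq2 (0.80, adjusted p = 0.0618) either. In limma without replicates 1, 3 and 5, 8 of the 9 passed (50.6% of genes tested), 2 higher and 6 lower. Without replicates 2 and 4, 8 passed and all were higher (25.7% of genes tested were called higher).

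From the log2 value of each member, the mean of 26 other endothelial genes of its library was next subtracted, so that a shift common to the member and all 26 genes cancels. Each of the 26 genes has the same weight in this mean, and 25 of them were above 0 in all libraries. Low genes can therefore move it. In the libraries labelled VAD *Stra6-/-*, *Tie1* was at 1123 and 1137 in replicates 2 and 5, with relative values of 1.23 and 1.62. Of 36 differences 16 passed (exact two-sided permutation test over all regroupings, adjusted over 36, where 0.00794 is the smallest p possible). In VAS *Stra6-/-* against VAS WT *Vwf* (0.48), *Cdh5* (0.37) and *Pecam1* (0.22) were higher and *Tek* (-0.53), *Tie1* (-0.23) and *Emcn* (-0.15) lower. In VAD WT against VAS WT only *Emcn* passed, at -0.30 (exact permutation p = 0.0159, adjusted p = 0.0357). The value rested on the libraries kept, at -0.43 without VAD WT replicates 2 and 4 (exact permutation, adjusted p = 0.0402) and -0.11 without replicates 1, 3 and 5 (exact permutation, adjusted p = 0.254). *Tek*, at 0.23 with all 5 libraries, passed without replicates 2 and 4 (0.33, exact permutation, adjusted p = 0.0402). All 5 libraries gave *Plvap* at 0.04 and *Pecam1* at 0.00. In the libraries labelled VAD *Stra6-/-* against VAS *Stra6-/-* *Tek* (1.31), *Emcn* (0.98) and *Pecam1* (0.67) were higher and *Vwf* (-0.78) and *Cdh5* (-0.37) lower, each with the smallest possible p (exact permutation, adjusted p = 0.026). Against VAD WT *Emcn* (1.13), *Pecam1* (0.89) and *Tek* (0.54) were higher and *Vwf* (-0.43) lower with all 5 libraries. Without VAD WT replicates 2 and 4 these 4 differences were 1.26, 1.02, 0.45 and -0.25, of which those of *Tek* and *Vwf* no longer passed (exact permutation, adjusted p = 0.143 and 0.153). Without replicates 1, 3 and 5 they were 0.94, 0.68, 0.69 and -0.70 and none passed (exact permutation, adjusted p from 0.0779 to 0.149, where 2 VAD WT libraries are left and limit the p this test can reach). *Plvap*, *Eng* and *Esam* passed in none of the 4 comparisons with all libraries, with differences from -0.18 for *Eng* to 0.18 for *Esam*.

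**Figure D4:**
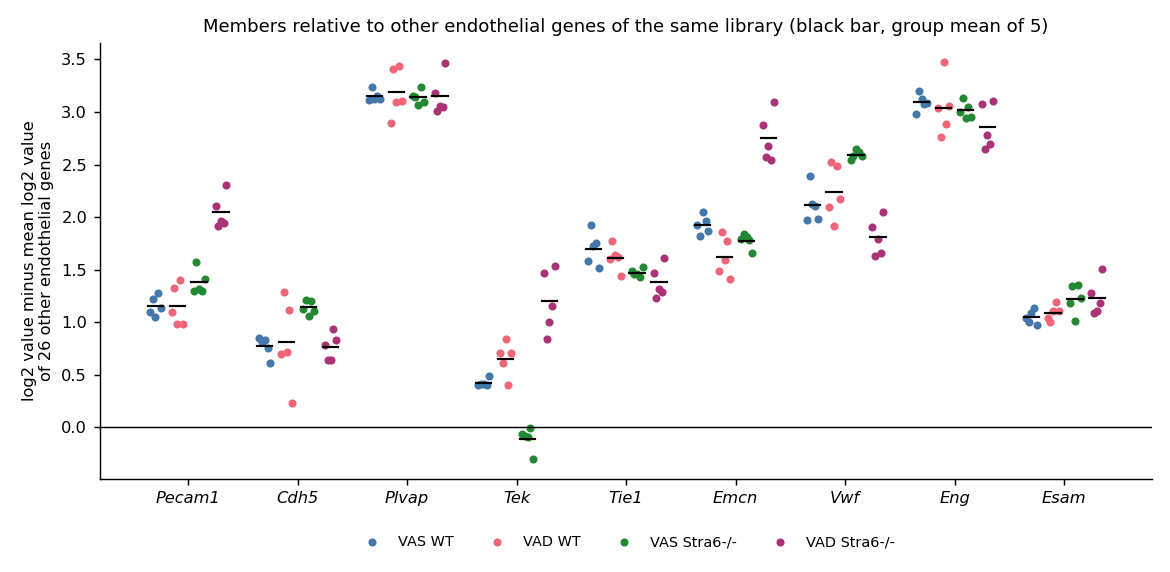
Log2 value of each member minus the mean log2 value of 26 other endothelial genes in the same library (vertical axis), with 1 point per library and a black bar at the mean of 5. *Tek*, *Emcn* and *Pecam1* of the libraries labelled VAD *Stra6-/-* lie above VAS *Stra6-/-*, and *Vwf* and *Cdh5* below it, while *Plvap* and *Esam* differ by 0.01.

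The 26 other endothelial genes did not move as 1 group either. In the libraries labelled VAD *Stra6-/-* against VAS *Stra6-/-* 12 were higher and 3 lower (all genes, 4596 and 5408 of 18807 tested), with a median log2 fold change of 0.32 beside 0.22 for the members and -0.07 for all genes tested. *Kdr*, the main VEGF receptor (1.60), and *Ramp2*, the adrenomedullin coreceptor (1.40), were among those that rose, and the transcription factor gene *Sox7* (-2.72) among those that fell. In VAS *Stra6-/-* against VAS WT 1 was higher and 5 lower (median 0.05, all genes 2984 and 2026), led by *Egfl7* (-1.17), *Cldn5* (-1.16) and *Myct1* (-1.06). In VAD WT against VAS WT 2 were higher and 1 lower (median -0.19) with all 5 VAD WT libraries, 1 and 16 without replicates 2 and 4, and 16 and 1 without replicates 1, 3 and 5. Over all genes these counts were 618 and 1034, 3306 and 3818, and 3217 and 2947. The summed value of the 26 genes was 15197 to 16647 in VAS WT, 14265 to 14659.8 in VAS *Stra6-/-* and 21069 to 22072 in the libraries labelled VAD *Stra6-/-*.

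Of 15 partners of the Tie receptors and endoglin, 14 were tested. *Angpt1*, the activating ligand of TIE2 that is made by perivascular cells, had means of 281 in VAS WT, 134 in VAS *Stra6-/-*, 232 in VAD WT and 1279 in the libraries labelled VAD *Stra6-/-*. It fell in VAS *Stra6-/-* (log2 fold change -1.08) and rose in the libraries labelled VAD *Stra6-/-* (3.27 against VAS *Stra6-/-* and 2.73 against VAD WT, the latter 3.43 without VAD WT replicates 2 and 4 and 1.67 without replicates 1, 3 and 5), the same directions as *Tek*. *Angpt2*, its context-dependent antagonist, passed in neither (-0.08 and 0.26). *Acvrl1*, the ALK1 receptor that works with endoglin, rose by 0.87 and *Tgfbr2* by 0.88 against VAS *Stra6-/-*, in which comparison 5 partners were higher and 1, *Smad1* (-0.39), lower. Against VAD WT 9 partners were higher and 0 lower, 12 and 0 without its replicates 2 and 4, and 6 and 4 without replicates 1, 3 and 5. Over all genes these counts were 4935 and 5569, 5765 and 6108, and 4403 and 5416.

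The arterial and venous list gave 5 higher and 3 lower of 12 in the libraries labelled VAD *Stra6-/-* against VAS *Stra6-/-* (all genes, 4596 and 5408 of 18807 tested). *Vcam1*, a leukocyte adhesion molecule (1.87), was higher, and *Efnb2*, an arterial marker (-2.30), *Nr2f2*, a venous regulator (-0.71), and *Ackr1*, a marker of venules (-0.65), were lower. Of 8 genes known from the closed inner retinal vessels 6 were higher and 0 lower, where 24.4% of genes tested were higher. They were led by *Slco1c1* (3.28), *Slco1a4* (2.37) and *Mfsd2a* (1.60). *Slc2a1*, the glucose transporter of that list that the RPE also expresses, rose from 7345 to 20677 as group means. In the same comparison 9 of 10 RPE markers were higher, and which cells gave the transcripts of the inner retinal vessel list was not tested. Of 12 mural cell genes 8 were higher and 1 lower, and of 7 lymphatic genes 2 were higher and 2 lower. The platelet list, which bears on *Vwf*, had 1 higher and 1 lower of 6, at summed values of 182 to 263 in VAS *Stra6-/-* and 310.3 to 432 in the libraries labelled VAD *Stra6-/-*.

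Markers of other tissues moved in the same comparison. The 10 surface epithelium markers were all lower, with summed values of 831947 to 865844 in VAS *Stra6-/-* and 25781 to 33790 in the libraries labelled VAD *Stra6-/-*. Of the 10 RPE markers 9 were higher, at 113347 to 119562 and 497826 to 542192, and all 10 sclera and fibroblast markers were higher, at 44175 to 45432 and 220771 to 232369. All 8 melanosome genes and all 10 macrophage genes were higher too. The macrophage genes summed to 10192 to 11278 in VAS *Stra6-/-* and 28614 to 29498 in the libraries labelled VAD *Stra6-/-*. By contrast, 5 of 10 rod genes and 4 of 10 skeletal muscle genes were lower. Of the erythrocyte genes 0 of 5 passed, although their sums did not overlap (13034 to 14672 in VAS *Stra6-/-* and 21914 to 31284 in the libraries labelled VAD *Stra6-/-*). Against VAS WT, VAS *Stra6-/-* had 9 of 10 skeletal muscle genes higher, at 32113 to 36107 against 12247 to 14863, and 3 of 8 melanosome genes higher, at 76398 to 80588 against 54642 to 58438. Its erythrocyte sum of 13034 to 14672 lay above the 5877 to 6695 of VAS WT, with 0 of 5 genes passing. The part of these shifts in the endothelial results was not tested.

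**Figure D5:**
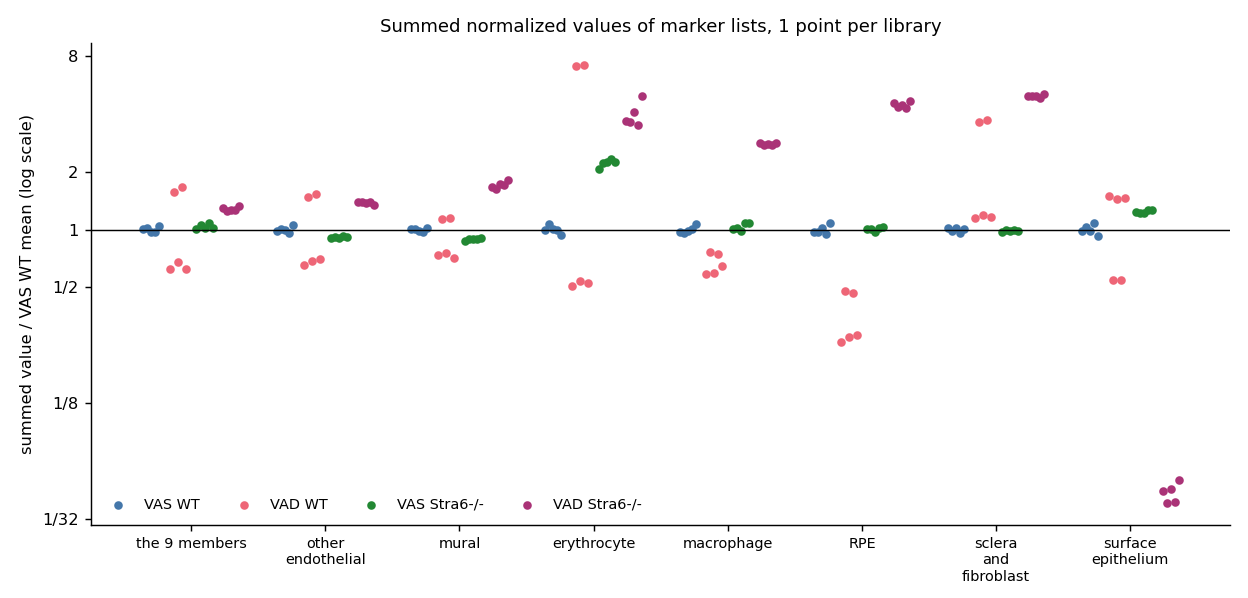
Summed normalized value of 8 marker lists in each library divided by the VAS WT mean of the list (vertical axis, log scale). The 9 members and the 26 other endothelial genes differ less between groups than the RPE, sclera and surface epithelium lists, and VAD WT replicates 2 and 4 lie apart from replicates 1, 3 and 5 in all 8 lists.

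The members are protein-coding genes on the assembly GRCm38 (GENCODE vM21). *Pecam1* (ENSMUSG00000020717.19) lies at chr11:106654217-106750628 on the minus strand, *Cdh5* (ENSMUSG00000031871.9) lies at chr8:104101625-104144511 on the plus strand and *Plvap* (ENSMUSG00000034845.6) lies at chr8:71497765-71511752 on the minus strand. *Tek* (ENSMUSG00000006386.15) lies at chr4:94739289-94874976 on the plus strand, *Tie1* (ENSMUSG00000033191.14) lies at chr4:118471191-118490061 on the minus strand and *Emcn* (ENSMUSG00000054690.17) lies at chr3:137341067-137432185 on the plus strand. *Vwf* (ENSMUSG00000001930.17) lies at chr6:125546774-125686679 on the plus strand, *Eng* (ENSMUSG00000026814.16) lies at chr2:32646595-32682669 on the plus strand and *Esam* (ENSMUSG00000001946.14) lies at chr9:37528078-37538319 on the plus strand.

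Promoter windows, from 250 bases before to 50 after the start annotated in RefSeq (GRCm38.p6), were found for 4 of the 9 members, *Emcn*, *Eng*, *Tek* and *Tie1*. For *Emcn* and *Tie1* the RefSeq start differs from the GENCODE gene start given above, and positions below are counted from the RefSeq start. The windows of *Emcn* and *Tek*, the members with the largest rises, and of *Tie1*, the other Tie receptor, are shown. Capitals mark AGGAAG and CGGAAG on either strand, 2 forms of the motif of the ETS factor family, which is active in endothelium. Other forms of this motif were not searched and are not marked. The windows lie at chr3:137340828-137341127 (plus strand), chr4:94739039-94739338 (plus strand) and chr4:118489800-118490099 (minus strand), in this order.
Emcn: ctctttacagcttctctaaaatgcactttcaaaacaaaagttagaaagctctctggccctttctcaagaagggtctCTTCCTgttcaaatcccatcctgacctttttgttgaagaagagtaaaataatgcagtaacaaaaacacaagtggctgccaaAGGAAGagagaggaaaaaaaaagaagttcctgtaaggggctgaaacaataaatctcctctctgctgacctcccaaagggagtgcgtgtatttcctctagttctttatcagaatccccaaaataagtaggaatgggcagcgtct
Tek: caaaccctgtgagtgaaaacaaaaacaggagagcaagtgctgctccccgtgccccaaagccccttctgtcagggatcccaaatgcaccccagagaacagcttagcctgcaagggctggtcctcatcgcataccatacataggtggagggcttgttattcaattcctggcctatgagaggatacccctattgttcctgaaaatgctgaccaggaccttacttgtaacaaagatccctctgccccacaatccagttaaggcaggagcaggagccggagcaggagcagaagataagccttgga
Tie1: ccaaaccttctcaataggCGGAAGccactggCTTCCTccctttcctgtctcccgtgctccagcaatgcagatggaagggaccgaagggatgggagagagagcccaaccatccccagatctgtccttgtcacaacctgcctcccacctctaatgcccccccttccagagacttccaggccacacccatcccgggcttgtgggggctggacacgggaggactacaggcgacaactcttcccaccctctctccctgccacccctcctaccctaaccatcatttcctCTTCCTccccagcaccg
The *Emcn* window held 2 matches to these ETS forms, at positions -174 and -93 with the start as 0, that of *Tie1* held 3, at -232, -219 and 33, and that of *Eng* 2. That of *Tek* held 0 matches to these forms. Of 32851 windows 46.5% held either form. The GATA motif AGATAA was in the *Tek* window at position 36 and in 11.2% of all windows, and AGGTCA, the half-site of retinoic acid receptors, was in the *Emcn* window on the minus strand at -153 and -29 and in 16.3% of all windows. TATAAA was in 0 of the 4 and in 13.6% of all. Direct repeats of AGGTCA with 2 or 5 bases between them were in 0 of the 4, and each in 3 of the 32851 windows. A match is a description of the letters and not a bound site.

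Across the 20 libraries the 36 pairs of members correlated with Pearson's r from -0.04 (*Tek* with *Vwf*) to 0.96 (*Pecam1* with *Emcn*), with a median of 0.76. Deviations from the group means correlated more closely, from 0.86 (*Vwf* with *Eng*) to 0.97 (*Tie1* with *Vwf*), median 0.93, but the 15 libraries outside VAD WT gave -0.78 to 0.74 with a median of 0.08. The shared deviation of the members was thus that of the divided VAD WT group. These values are descriptions, since the libraries share groups and size factors. The genes whose values over the 20 libraries were most like the mean of the standardized members were *Kirrel* (r = 0.98), *Peg13* (0.97), *Ccdc126* (0.97), *Rorb* (0.97), *Atp1b2* (0.97), *Elovl4* (0.97), *Podxl* (0.96), *Thra* (0.96), *Vamp2* (0.96) and *Six2* (0.95), of which *Podxl* was in the other endothelial list. For deviations from group means they were *Acta1* (r = 1.00), *Fmod* (0.99), *Hbb-b1* (0.99), *Chil1* (0.99), *Serpinf1* (0.99), *Col12a1* (0.99), *Thbs4* (0.99), *Col1a2* (0.99), *Igfbp4* (0.99) and *Col1a1* (0.99), 4 of which were in the sclera and fibroblast list and 1 in the skeletal muscle list.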

How the data were processed

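RNA-seq data of 20 outer eyecup libraries were used, 5 per group, each from both eyecups of 1 mouse per the study's methods. Reads were aligned by the authors to GRCm38/mm10 (STAR 2.5.3a), gene counts came from RSEM 1.2.30, and their processing notes also name DESeq2 1.32.0. Whether counting used strand is not given in the sources used here. Each deposited value (signal) equals a gene count over the size factor of its library. It keeps the steps that single reads leave, from which whole reads were recovered in 19 libraries (100% of values whole within 0.01 reads). The library labelled VAD *Stra6-/-* replicate 1, whose step is too near 1 to tell, was left out of count tests. Depth was taken from the recovered reads and, for that library, from the same estimate of its step.

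Genes with at least 5 reads in all (18807 of 24411) were tested with limma 3.58.1 (R 4.3.3) with a mean-variance trend on log2(value + 1). Such a fold change understates that of low genes. All 20 libraries and 4 group means were fitted, p-values were adjusted by Benjamini-Hochberg over all genes tested, and 0.05 was the threshold. edgeR 4.0.16 and DESeq2 1.42.0 were run on the recovered reads of 19 libraries. The script was tested on simulated data. The log2 values of members, less the mean of 26 other endothelial genes, were compared by exact permutation (scipy 1.17.1). The members and lists were chosen with earlier results of these data known. Named were all members, *Stra6*, *Xist* and *Ddx3y*, up to 3 called genes per list and comparison by fold change, defining markers, and the 10 genes most like the members by Pearson's r. Partners and vessel genes outside this rule (*Angpt2*, *Acvrl1*, *Tgfbr2*, *Smad1*, *Slc2a1*, *Nr2f2* and *Ackr1*) were chosen after their values were seen. Alternatives were another pseudocount, filter, scaling, tool or fold threshold, only the groups compared, a replicate block, and libraries left out. Levels per kb used the length of the transcript with the longest coding sequence (GENCODE vM21). Pairs of libraries of 1 group differed by a chi-square of at least 3.35 per gene.

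Replicate numbers did not pair the libraries. Same-numbered libraries of different groups had deviations correlated from -0.199 to 0.145 (median 0.011), with 1 of 30 pairs above 0.1.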

Additional observations from a re-analysis of the deposited data

Results flagged for a closer look

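The interaction of genotype and diet passed for *Emcn* (1.60 on the log2 scale), *Tek* (1.40) and *Pecam1* (0.99), where 44.2% of genes tested passed. It passed for *Stra6* (3.27), *Xist* (-7.79) and *Ddx3y* (11.10) too, and diet, genotype and sex-linked transcripts cannot be told apart in it. *Emcn* and *Tek* also passed with either set of VAD WT libraries left out, and *Pecam1* did not pass without VAD WT replicates 1, 3 and 5.

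In 3 of 36 groups of 5 libraries 1 value lay far from the other 4. They were *Vwf* in VAS WT replicate 2 (1848, the others at most 1581), *Tie1* in the same library (1334, the others at most 1199) and *Plvap* in VAS *Stra6-/-* replicate 4 (3545, the others at most 3256). Chance flags about 1 in 20 groups.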

How the results depend on the processing

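The members' calls depended most on VAD WT. The number of members called in VAS *Stra6-/-* against VAS WT, VAD WT against VAS WT, the libraries labelled VAD *Stra6-/-* against VAS *Stra6-/-* and against VAD WT, and the interaction was 1, 0, 3, 4 and 3 (all genes, 5010, 1652, 10004, 10504 and 8319 of 18807 tested). It was 6, 9, 7, 9 and 8 without VAD WT replicates 2 and 4 (all genes, 7524, 7124, 11414, 11873 and 10286). Without replicates 1, 3 and 5, an alternative added after seeing the data, it was 7, 9, 7, 9 and 8 (all genes, 7913, 6164, 11783, 9819 and 9508). With only the 2 groups fitted it was 6, 0, 7 and 3 (all genes, 8208, 639, 11700 and 8898). With a log2 fold change beyond 2 required as well it was 0 in each (all genes, 207, 77, 1707, 1952 and 1960). edgeR and DESeq2 on the recovered reads gave 1, 0, 3, 3 and 2 (all genes, 4880, 1529, 9455, 9940 and 7947 in edgeR and 5495, 2160, 9727, 10190 and 8298 in DESeq2). At an unadjusted p under 0.05 VAD WT against VAS WT also gave 0 members in limma. Leaving out 1 library at a time gave 0 to 1, 0 to 1, 3 to 4, 3 to 6 and 2 to 3 (all genes, 4282 to 5575, 1260 to 2651, 9495 to 10408, 10002 to 10908 and 7904 to 8852). The 1 was called in VAD WT against VAS WT without VAD WT replicate 2 or 4, and 6 without replicate 4.

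Directions turned as follows. Without VAD WT replicates 2 and 4, VAD WT against VAS WT gave *Tek* -0.25 and *Vwf* -0.63, the libraries labelled VAD *Stra6-/-* against VAD WT gave *Vwf* 0.55, the interaction gave *Cdh5* 0.65, and *Plvap* relative to other endothelial genes fell to -0.12 in VAD WT against VAS WT. Without replicates 1, 3 and 5, VAD WT against VAS WT gave *Pecam1* 0.81, *Cdh5* 1.03, *Plvap* 0.87, *Tie1* 0.60, *Emcn* 0.49, *Eng* 0.33, *Esam* 0.65 and *Pmel* 0.045. In that setting the libraries labelled VAD *Stra6-/-* against VAD WT gave *Cdh5* -0.81, *Plvap* -0.64, *Tie1* -0.68, *Eng* -0.33, *Esam* -0.23, *Hbb-bs* -0.45 and *Svep1* -0.56, and the interaction gave *Plvap* -0.64, *Tie1* -0.47, *Eng* -0.27 and *Esam* -0.42. The cause was not tested.

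Of the differences relative to other endothelial genes 16 passed, 9 with 2 libraries left in VAD WT (without replicates 1, 3 and 5), and 14 to 16 with 1 library left out. With the replicate block 0 passed, since 5 differences cannot give an exact sign-flip p under 0.0625. In limma the replicate block changed no member's call. Only 3 of 20 libraries correlated best with their own number. Over all genes, VAS *Stra6-/-* against VAS WT gave 5010 calls, and 8208 with only its 2 groups. VAD WT against VAS WT gave 1652 calls, 639 with only its 2 groups, 7124 without replicates 2 and 4 and 6164 without replicates 1, 3 and 5. Of its calls 37.4% were higher, and 49.7% in DESeq2. No member was near the limit of 3 reads in any library.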

Other observations

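*Tie1* had the narrowest spread of the 36 combinations of member and group. In the libraries labelled VAD *Stra6-/-* it was at 1122, 1123, 1131, 1137 and 1137, a coefficient of variation of 0.635%, whereas its coefficient of variation was 6.38% in VAS WT, 2.88% in VAS *Stra6-/-* and 51.1% in VAD WT. The lowest of 36 values was picked here, and it was not set against the noise of counting reads.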
